A study of Mus musculus with 24 samples.

Results

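Lipid-associated macrophage genes are the transcripts by which macrophages that gather around and engulf lipid of fat cells are recognised. The set followed here has 10 genes: Trem2, Cd9, Gpnmb, Atp6v0d2, Mmp12, Itgax, Lgals3, Spp1, Clec7a and Msr1. They were chosen by name, and their probes by the accession each array probe carries. A probe was found for 9 of the 10, with 12 probes in all among the 55681 non-control probes of the array and among 20656 genes with a named probe. Clec7a, the receptor dectin-1 for fungal beta-glucans, was not analysed here.

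The samples were epididymal white fat pads, which lie against the testis, from 24 male C57BL/6JRcc mice aged 28 or 29 weeks. A semi-synthetic diet lacking nicotinamide riboside (No NR, 0 mg per kg) was fed to 12 mice for 18 weeks, and 12 received the same diet with 30 mg per kg of it as the vitamin B3 source (Ctrl NR). Both diets drew 40% of their energy from fat and held low but sufficient tryptophan, an alternative precursor of NAD. All mice were given 0.8 g of diet in the dark phase and were fasted towards its end. They were then refed with 1.8 g of diet for 4 hours before the tissue was taken. No genotype, transgene or drug set the groups apart, and the question of the comparison was how fat tissue transcripts respond when dietary vitamin B3 is withdrawn. The RNA of each mouse, labelled with Cy5, was hybridised on its own array against a shared Cy3 pool of RNA from the same tissue, to which mice on other diets and 4 female samples had contributed. A value below is the log2 ratio of a mouse to that pool, so 0 is the level of the pool and each unit up is a factor of 2.

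In obese fat, macrophages collect around dying fat cells, take up their lipid and break it down in lysosomes. The receptor Trem2 binds lipids and signals through the adaptor Tyrobp, and in mice it is needed for much of this gene programme. The other members serve lipid uptake (Msr1), adhesion (Itgax, Cd9), lysosomal work (Gpnmb, Atp6v0d2) and secretion into the tissue (Mmp12, Lgals3, Spp1). Because the fat pad was measured as a whole, fewer macrophages and less RNA per macrophage cannot be told apart.

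The arrays lay on 5 slides, each scanned at 1 time and each holding mice of both diets. In Cy5, 34.5% to 50.7% of spots per array stood well above background. Of the markers of the labelled tissue, all 12 adipocyte genes passed the filter on dim probes, and of those of its neighbours, 3 of 12 epididymis and testis genes did (Prm1, Prm2 and Tnp1). The arrays of No NR 118 and No NR 74 stood apart in their dim probes. The log ratios of the 30912 probes below the filter had a median absolute deviation of 0.0497 and 0.0273 on these arrays, against 0.138 to 0.164 on the other 22. Over the 24769 probes above the filter, which include every member reported with a test, it was 0.201 and 0.173 on these arrays, against 0.187 to 0.365 on the others. Results are therefore also given without both.

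The sequence before the transcription start is shown for members whose window held a motif of those searched. Whether the members share a regulator was not tested. The windows are the 250 bases upstream of RefSeq starts on GRCm38.p6, available for 7 of the 9 measured genes in 9 windows. Atp6v0d2 and Msr1 are named only. The motifs searched on both strands were AP-1 (TGANTCA, which reads alike on both strands), PU.1 (GAGGAAGT), and the E-box (CACGTG) and M-box (TCATGTG) of the lysosomal factors Mitf, Tfeb and Tfe3; none of these overlaps another in the windows shown. Capitals mark the matches. The Trem2 window lies on chromosome 17 at chr17:48346151-48346400 (plus strand), that of Itgax at chr7:128129300-128129549 (plus), that of Mmp12 at chr9:7347124-7347373 (plus) and that of Spp1 at chr5:104434861-104435110 (plus).
Trem2: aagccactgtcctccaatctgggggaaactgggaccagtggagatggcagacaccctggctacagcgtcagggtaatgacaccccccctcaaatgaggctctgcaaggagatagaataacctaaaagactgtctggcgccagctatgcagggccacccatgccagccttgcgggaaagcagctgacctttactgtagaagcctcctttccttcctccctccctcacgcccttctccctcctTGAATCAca
Itgax: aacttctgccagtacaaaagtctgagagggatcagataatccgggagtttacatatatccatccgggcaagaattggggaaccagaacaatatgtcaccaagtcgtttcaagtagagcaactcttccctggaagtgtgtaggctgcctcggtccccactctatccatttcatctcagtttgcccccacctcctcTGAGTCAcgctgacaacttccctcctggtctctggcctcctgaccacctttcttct
Mmp12: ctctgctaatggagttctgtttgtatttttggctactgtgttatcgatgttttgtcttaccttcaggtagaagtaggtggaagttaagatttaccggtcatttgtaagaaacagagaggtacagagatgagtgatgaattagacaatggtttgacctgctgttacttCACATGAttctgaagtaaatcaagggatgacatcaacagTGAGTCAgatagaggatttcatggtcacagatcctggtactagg
Spp1: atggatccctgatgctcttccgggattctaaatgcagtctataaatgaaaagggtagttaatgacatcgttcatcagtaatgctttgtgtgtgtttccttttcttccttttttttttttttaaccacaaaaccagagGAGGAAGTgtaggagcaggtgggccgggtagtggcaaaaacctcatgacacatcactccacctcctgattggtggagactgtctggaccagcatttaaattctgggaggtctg
The AP-1 letters stood in 3 of the 9 windows (Trem2, Itgax and this window of Mmp12), and in 6.75% of the 32817 promoter windows of the same length. They began 9 bases before the start in Trem2, 56 in Itgax and 44 in Mmp12. The N of the pattern allowed any base, and the match read TGAATCA in Trem2 but TGAGTCA in Itgax and Mmp12. The PU.1 letters stood in 2 windows, that of Spp1 and an upstream window of Mmp12 (2.44% of all windows), the M-box letters in the Mmp12 window shown (3.25%) and the E-box letters in no member window (6.02%). These are matches of letters, not measured binding sites.

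Among the receptors, Trem2 ranged widely between mice of the same diet. Its log2 ratio was -2.43, 0.042 and 0.84 (lowest, median and highest) in No NR mice, against -3.87, -0.84 and 1.09 in Ctrl NR mice. The ranges overlapped, with 3 Ctrl NR mice below every No NR mouse (the lowest being Ctrl NR 115) and 1 above (Ctrl NR 88), and 6 No NR and 3 Ctrl NR mice lay above the pool. The Cy5 signal of its probe ran between 268.5 and 33257 units, with a median of 7172, and was well above background on all 24 arrays. Between the lowest and the highest mouse the ratio differed 31.1-fold. Set against that, the diets differed by 0.48 ± 0.54 on the log2 scale (No NR minus Ctrl NR, with its SE, n = 12 each; limma, adjusted p = 0.710).

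Itgax encodes CD11c, the integrin chain that pairs with Itgb2 and by which inflamed fat macrophages are often sorted. It lay at -1.96, 0.11 and 0.79 in No NR mice, against -2.57, -0.49 and 0.79 in Ctrl NR mice. The highest mouse, No NR 90, stood level with the highest Ctrl NR mouse, and the lowest was again Ctrl NR 115. The diet difference was 0.37 ± 0.37 (SE, limma, adjusted p = 0.668).

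Msr1, the class A scavenger receptor for modified lipoproteins, spread least of the 9. Its brighter probe gave -0.93, 0.12 and 0.73 in No NR mice, against -1.31, -0.38 and 0.56 in Ctrl NR mice. Above the pool lay 7 No NR mice and 2 Ctrl NR mice, yet the ranges overlapped. The difference was 0.36 ± 0.20 (SE, limma, adjusted p = 0.426). A second Msr1 probe, well above background on 10 arrays of each diet, gave 0.24 (adjusted p = 0.463 over all kept probes) and followed the first across mice (r = 0.849, rho = 0.802, permutation p = 2e-05 and 1e-05, n = 24; r = 0.885 without the 2 mice farthest from the median).

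At the cell surface and in vesicles, Cd9 and Gpnmb moved over very different spans. Cd9, a tetraspanin that many cell types carry, lay at -1.34, -0.024 and 0.38 in No NR mice, against -2.0, -0.53 and 0.63 in Ctrl NR mice. Gpnmb, a glycoprotein of lysosomal membranes and a known target of Mitf, lay at -2.40, 0.42 and 1.07 in No NR mice, against -3.82, -0.20 and 1.43 in Ctrl NR mice. For both genes Ctrl NR 115 was the lowest mouse and Ctrl NR 88 the highest. The Gpnmb ratio differed 37.9-fold between these mice, and the Cd9 ratio 6.21-fold. Neither gene differed between diets beyond its error (Cd9 0.22 ± 0.29, adjusted p = 0.756; Gpnmb 0.44 ± 0.56, adjusted p = 0.749; SE, limma).

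Atp6v0d2 encodes a subunit of the proton pump that acidifies lysosomes, one that osteoclasts and macrophages carry. It lay at -2.60, 0.22 and 1.07 in No NR mice, against -3.15, -0.57 and 1.31 in Ctrl NR mice. The lowest value, that of Ctrl NR 115, came from a spot not well above background (Cy5 signal 43 against a local background of 39 units), and the probe was well above background on the other 11 Ctrl NR arrays. The No NR range sat inside the Ctrl NR range, with 3 Ctrl NR mice below every No NR mouse and 1 above. The diets differed by 0.46 ± 0.52 (SE, limma, adjusted p = 0.713). Its second probe gave 0.50 (adjusted p = 0.570 over all kept probes) and ran nearly in parallel (r = 0.981, rho = 0.973, each permutation p = 1e-05, the smallest 100000 resamples can give; r = 0.975 without the 2 farthest mice).

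Of the secreted proteins, Mmp12, the macrophage elastase, showed the lowest p of the members. It lay at -1.37, 0.63 and 1.43 in No NR mice, against -1.82, -0.62 and 1.06 in Ctrl NR mice. The pool level was exceeded in 8 No NR mice and 4 Ctrl NR mice and the ranges overlapped, as the lowest mouse was Ctrl NR 75 and the highest No NR 81. The difference was 0.74 ± 0.34 (SE, n = 12 each), which is 1.67-fold with a 95% interval of 1.03 to 2.71. At an unadjusted p of 0.0372 and an adjusted p of 0.318 in limma it did not pass the threshold of 0.05. The unadjusted p was itself above 0.05 in 8 of 17 other settings, at 0.0901 with slide as a block, 0.148 with median centring and 0.324 with scaling between arrays, and in 11 of 24 fits without 1 mouse (0.0736 without Ctrl NR 75). The 17 include a limma fit with the mean of the other members as a covariate (unadjusted p = 0.00561), which estimates a different quantity. A second Mmp12 probe was well above background on 2 No NR and 1 Ctrl NR arrays and was not tested; it lay at -0.62, -0.074 and 0.17 in No NR mice, against -0.66, -0.26 and 0.24 in Ctrl NR mice.

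Lgals3 encodes galectin-3, a lectin for beta-galactosides that macrophages release in large amounts. It lay at -1.46, 0.60 and 1.12 in No NR mice, against -2.54, -0.21 and 1.18 in 11 Ctrl NR mice, the spot of Ctrl NR 104 being flagged as an outlier and left out. The ranges overlapped, with 3 Ctrl NR mice below every No NR mouse and 1 above, and the difference was 0.55 ± 0.43 (SE, limma, adjusted p = 0.588). Spp1 encodes osteopontin, a matrix protein and ligand of integrins and Cd44. It lay at -1.39, 0.22 and 1.01 in No NR mice, against -1.07, -0.39 and 0.89 in Ctrl NR mice, and here No NR mice held both extremes (No NR 78 and No NR 81). The Spp1 difference was 0.33 ± 0.24 (SE, limma, adjusted p = 0.549). Its probe was dim, with a Cy5 signal between 45 and 543 units against a local background of 30 to 38, and was well above background on 11 arrays of each diet.

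**Figure D1:**
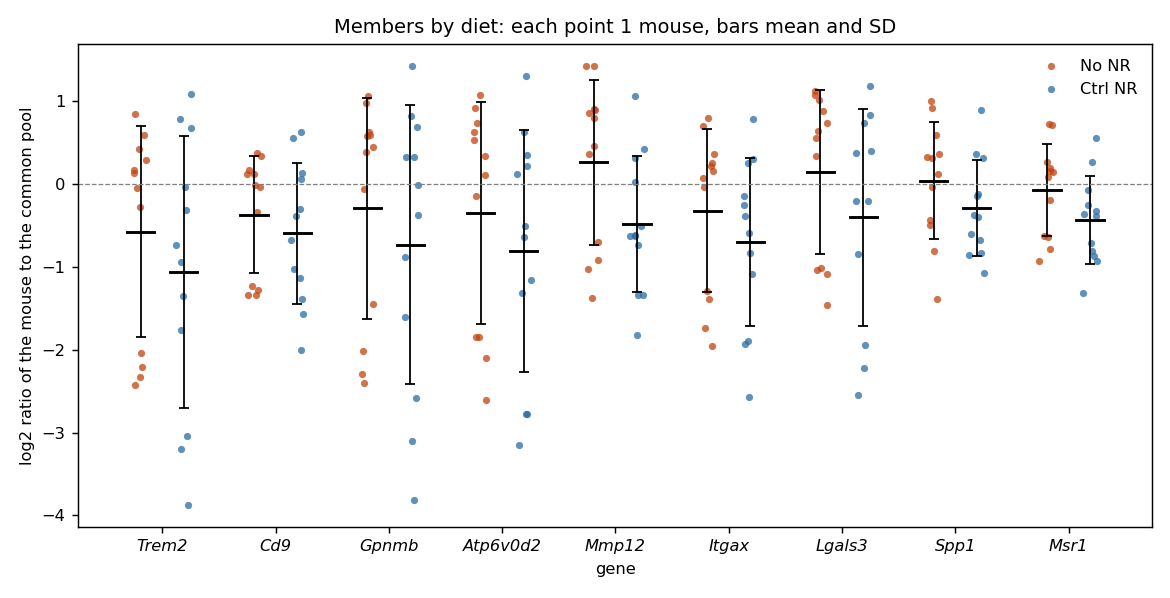
Log2 ratio to the common pool (y axis) of the 9 measured members (x axis), by diet, with No NR in red and Ctrl NR in blue; each point is 1 mouse and the bars are the mean and SD. The diets overlap for every gene, and Gpnmb and Trem2 reach -3.82 and -3.87 in Ctrl NR mice.

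Set together, the 9 members had positive diet differences, with a median of 0.44, against a median of -0.0064 over all 21053 features and 47.6% of features above 0. Because the members varied together across mice, these are not 9 separate observations. None passed an adjusted p of 0.05 in limma, and 0% of all features did. At an unadjusted p under 0.05 there was 1 member, Mmp12, where 14.1% of all features (2974) stood, 6.87% of all features being higher in No NR mice and 7.25% lower. The 95% interval ran between 0.646-fold and 3.03-fold for Trem2, 0.770-fold and 1.76-fold for Cd9 and 0.962-fold and 1.72-fold for Msr1.

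The slides did not give 1 answer. On slides 2 and 5, all 9 members were higher in No NR mice (0.40 to 1.48 on slide 2 and 0.62 to 1.82 on slide 5, each with 3 No NR and 2 Ctrl NR mice). On slide 1 (1 No NR and 2 Ctrl NR mice) all 9 were lower, by -0.88 to -0.13. Slide 3 (3 and 2 mice) had 8 lower and 1 higher (-1.05 to 0.056), and slide 4 (2 and 4 mice) had 8 higher and 1 lower (-0.017 to 0.72). With slide as a block, the difference was 0.31 for Trem2, 0.22 for Gpnmb and 0.65 for Mmp12 (adjusted p = 0.447). A single mouse also carried weight: without Ctrl NR 115 the difference was 0.23 for Trem2, 0.16 for Gpnmb and 0.25 for Atp6v0d2. Ctrl NR 115 had the lowest mean over the members of all mice (-2.30), so leaving it out raises the Ctrl NR mean by construction. Its array had the lowest share of spots well above background in Cy5 (34.5%), followed by No NR 118 on the same slide (36.8%). Without No NR 118 and No NR 74, the difference was 0.82 for Trem2, 0.75 for Gpnmb and 0.97 for Mmp12 (adjusted p = 0.192), and again no member passed. Both are mice with every member below the pool (means over the members -1.42 and -1.21). Leaving them out therefore raises the No NR mean by construction.

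The members spread far between mice of the same diet. The SD within diets was 1.52 for Gpnmb, 1.47 for Trem2 and 1.40 for Atp6v0d2, which placed them 3, 5 and 7 in order among 21053 features. Lgals3 (SD 1.15) stood 23, Itgax (0.998) stood 46 and Mmp12 (0.913) stood 72. Over all features the median SD was 0.199 and the 99th percentile 0.732, and 7 of the 9 members exceeded that percentile. The remaining members were Spp1 (0.649, rank 316) and Msr1 (0.544, rank 555), both read by dim probes. On the processed signals of the scanner software, the SD was 1.28 for Spp1 and 0.862 for Msr1, and 5 of the 9 members stood within the widest 1% of features. There Atp6v0d2 stood 7, Gpnmb 48, Trem2 85, Lgals3 280, Itgax 408 and Cd9 895. Without No NR 118 and No NR 74, Gpnmb, Trem2 and Atp6v0d2 stood 4, 6 and 10. The widest feature of all was Prm1, a sperm chromatin protein, whose deviations followed the members with r = -0.037.

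**Figure D2:**
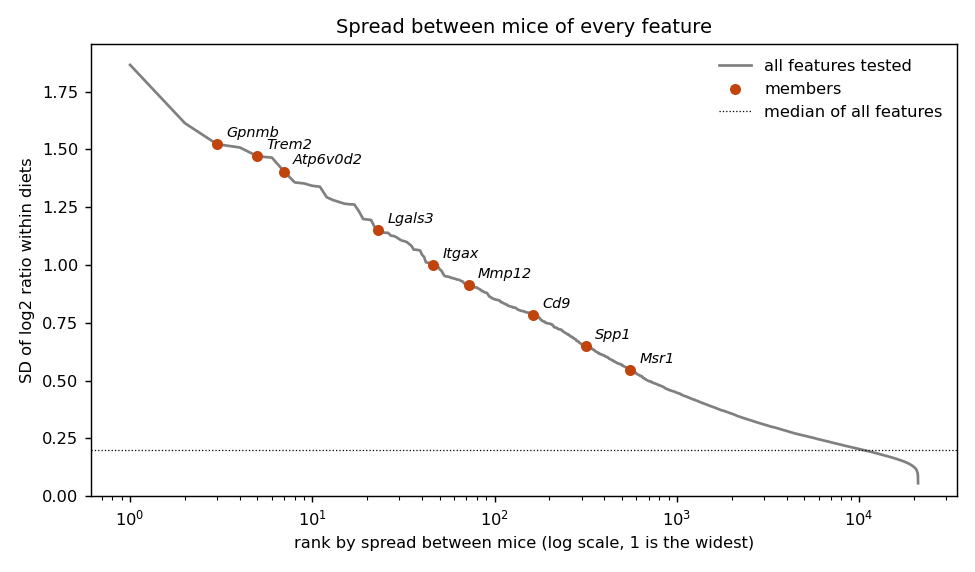
SD of the log2 ratio within diets (y axis) against rank by that SD on a log scale (x axis) for all 21053 features (grey line), with the 9 members in red and the median of all features dotted. With the loess values plotted, Gpnmb, Trem2 and Atp6v0d2 lie among the 10 widest features.

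The spread was common to the members, with largely the same mice low or high for all of them. Averaged over the members, the lowest mice were Ctrl NR 115 (-2.30), Ctrl NR 95 (-1.97), Ctrl NR 75 (-1.91) and No NR 78 (-1.72). The highest were Ctrl NR 88 (0.92), No NR 81 (0.88), No NR 90 (0.86) and Ctrl NR 117 (0.59). Thus both ends held mice of both diets. Every measured member lay above the pool in 4 No NR and 2 Ctrl NR mice, and every one lay below it in 4 No NR and 7 Ctrl NR mice. In No NR mice the values left a gap, with 4 mice at -1.21 or lower and the other 8 at -0.020 or higher. Ctrl NR mice 77, 104, 84, 97 and 108 lay within that gap, so the 24 mice together formed a nearly continuous series whose widest step was 0.48.

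**Figure D3:**
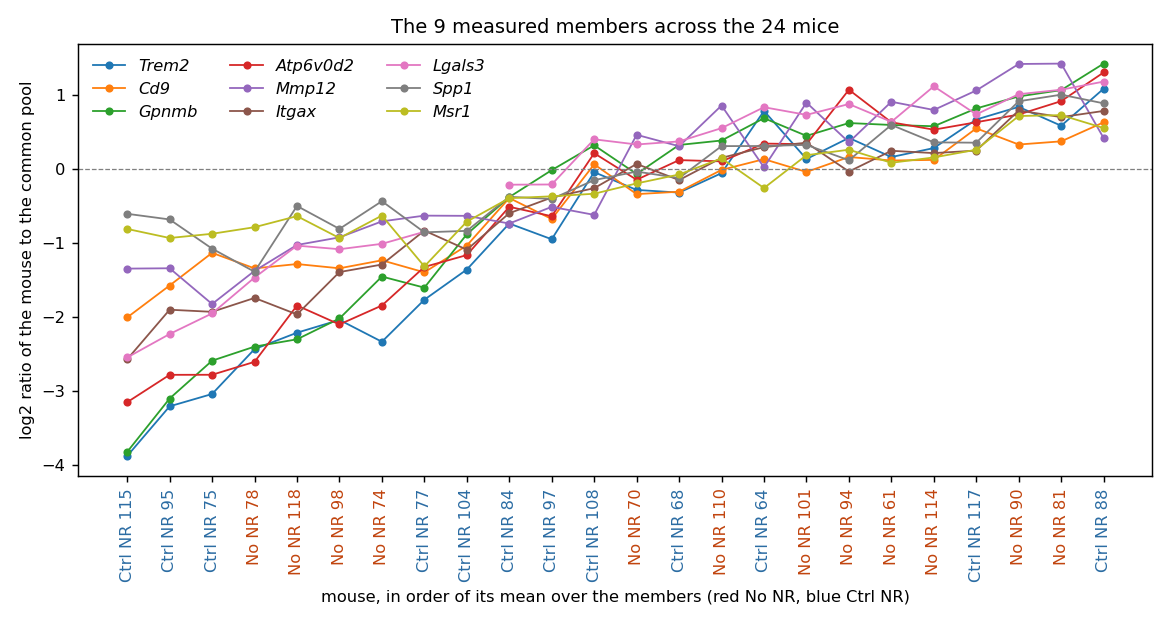
Log2 ratio to the common pool (y axis) of each measured member (coloured lines) in the 24 mice, ordered from the lowest to the highest mean over the members (x axis; red labels No NR, blue labels Ctrl NR). The members are low in largely the same mice, and Gpnmb, Trem2 and Atp6v0d2 fall furthest below the pool; the line of Lgals3 breaks at the mouse whose spot was left out.

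All 36 pairs of members were positively related across mice, taken as deviations from the diet mean. Pearson's r lay between 0.841 (Gpnmb and Spp1) and 0.993 (Trem2 and Lgals3) with a median of 0.911, and Spearman's rho between 0.837 and 0.980 (each permutation p and each Benjamini-Hochberg value over the 36 pairs 1e-05, the smallest that 100000 resamples can give). Leaving out the 2 mice farthest from the median of the first gene gave r of 0.863 to 0.990. Within No NR mice r ran between 0.910 and 0.992, and within Ctrl NR mice between 0.786 and 0.995. With slide means removed r was 0.864 to 0.993, and without No NR 118 and No NR 74 it was 0.832 to 0.993. All members were read from the same hybridisation of a mouse, which they therefore share.

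The members were not equally close to the rest of their set. Against the mean of the other measured members, r was 0.986 for Atp6v0d2, 0.985 for Lgals3, 0.984 for Trem2, 0.981 for Gpnmb, 0.979 for Itgax and 0.970 for Cd9. It was 0.920 for Mmp12, 0.897 for Msr1 and 0.889 for Spp1. Mmp12, Msr1 and Spp1 thus stood furthest from the common course. They were also read by the dimmest of the probes that represent a member. Their median Cy5 signal was 303.5, 175 and 135 units, against 930 (Atp6v0d2) or more for the others. What dimness adds to their lower r was not tested. A high r was not confined to the members: 481 of 20713 features with a value on every array had r above 0.9 with the members' mean, and 41 had r below -0.9. Among all such features Atp6v0d2 stood 9 and Spp1 528 by their r with the other members.

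Given how tightly the members moved together, the diets were also compared with the mean of the other members as a covariate, a fit added after the data were seen. Mmp12 then lay 0.41 ± 0.14 higher in No NR mice (SE; 95% interval 0.13 to 0.69; limma, unadjusted p = 0.00561, adjusted p = 0.154), and this did not pass. Since each member is set against the mean of the others, differences on both sides of 0 follow from how the fit is built. Gpnmb lay at -0.26 (95% interval -0.50 to -0.024; limma, unadjusted p = 0.0319, adjusted p = 0.291), Trem2 at -0.18, Atp6v0d2 at -0.17, Cd9 at -0.12 and Itgax at -0.062. Lgals3 stood at 0.11, Spp1 at 0.086 and Msr1 at 0.16. None of the 9 passed (adjusted p 0.154 to 0.772), although 69 to 77 of the 21053 features did.

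**Figure D4:**
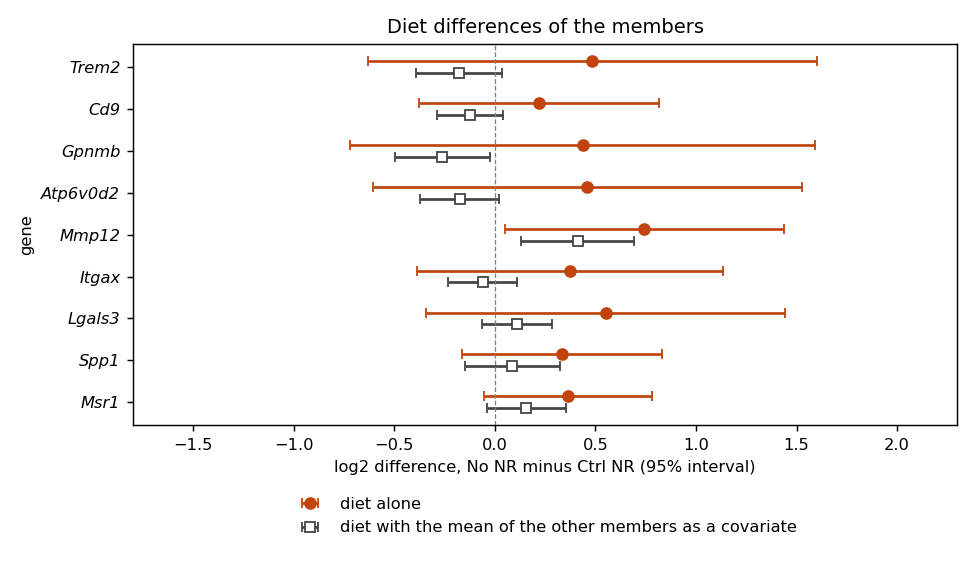
Diet difference on the log2 scale, No NR minus Ctrl NR (x axis), of each measured member (y axis) with its 95% interval, fitted with diet alone (red circles) and with the mean of the other members as a covariate (open squares). The intervals narrow with the covariate, 5 genes lie below 0 and 4 above.

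Ranked by r with the members' mean over 24 mice, the named gene closest to them was Arhgap25, a GTPase-activating protein of blood cells (r = 0.994, rho = 0.974). After it came Nckap1l, a subunit of the actin-branching WAVE complex in blood cells (0.990), the stress-induced factor Atf3 (0.989), the endosomal receptor Tlr13 (0.988) and the diacylglycerol lipase Daglb (0.987). Adam8, a metalloprotease of leukocytes (0.987), Nceh1, which hydrolyses cholesterol esters (0.985), and Cyth4 (0.984) closed the 8. The span of Nceh1 itself ran between -2.90 and 1.08. Running opposite were Fam13a (r = -0.952), the adipocyte gene Adig (-0.951), the fatty acid synthesis enzyme Acaca (-0.950) and the glutathione transferase Gsta3 (-0.949). None of these 12 passed the test between diets (limma, adjusted p 0.552 to 0.755).

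For single members, with the other members left out of the search, the closest named gene was Arhgap25 for Trem2 (r = 0.992), Rab7b of late endosomes for Cd9 (0.978), Adam8 for Gpnmb (0.986) and Nceh1 for Atp6v0d2 (0.991). It was the leukocyte tetraspanin Cd53 for Mmp12 (0.953), Mpeg1, a pore-forming protein of macrophages, for Itgax (0.990), and the myeloid receptor Cd300c2 for Lgals3 (0.992, n = 23). Spp1 was closest to the serotonin receptor Htr2b (0.970) and Msr1 to the oxysterol-binding Osbpl3 (0.950). Thus the members did not share 1 closest gene. These r values describe 24 mice and carry no test, since the genes were picked as the highest of 12375.

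The partners of the members followed them in part. Of the 20713 features with a value on every array, 3313 had r above 0.5 with the members' mean and 2181 (10.5%) had r below -0.5. Of 13 measured genes of Trem2 and Clec7a signalling, 11 had r above 0.5 with the members' mean. Among them were Tyrobp, the adaptor of Trem2 (r = 0.974, spanning 8.52-fold between mice), and Inpp5d, a phosphatase that limits the signal (0.962). The list mean had r = 0.984 (rho = 0.958; 0.982 without the 2 farthest mice). Tyrobp differed between diets by 0.53 ± 0.37 and Inpp5d by 0.26 ± 0.22 (SE, limma, adjusted p = 0.532 and 0.605), and none of the 13 passed.

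Of 17 lysosome and endosome genes, 14 had r above 0.5, among them the progranulin gene Grn (0.943) and the cathepsin gene Ctsb (0.905), and the list mean had r = 0.985 (rho = 0.959). Of 17 subunits of the proton pump, 10 had r above 0.5 and the list mean had r = 0.929 (rho = 0.917). Atp6v1b2 was close to the members (0.924) whereas Atp6v1h was not (0.173). Atp6v1h had the lowest p of its list, with a difference of 0.34 ± 0.11 (SE, limma, adjusted p = 0.184).

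Genes that handle lipid did not all go 1 way with the members. Of 16 measured, 7 had r above 0.5 and 3 below -0.5, while the list mean had r = 0.958 (rho = 0.923). Plin2, the coat of lipid droplets, had r = 0.792 and a diet difference of 0.39 ± 0.14 (SE, limma, adjusted p = 0.213). Lpl, lipoprotein lipase, had r = -0.437 and a difference of 0.28 ± 0.13 (adjusted p = 0.332). The 3 that ran opposite were Fabp4, Apoe and Nr1h3 (r = -0.888, -0.625 and -0.715), which were named after their values were seen and which fat cells carry too.

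Of the partners of Spp1, Itgax and Lgals3, 8 of 14 had r above 0.5, and the list mean had r = 0.969 (rho = 0.94). Itgb2, the chain that pairs with Itgax, was the nearer (0.982, difference 0.44 ± 0.32, adjusted p = 0.546), and Anxa2, a membrane-binding annexin, was unrelated (-0.068, difference 0.24 ± 0.081, adjusted p = 0.180; SE, limma). Of the 7 measured matrix proteases and inhibitors 5 had r above 0.5, including Timp1 (0.893) and Mmp3 (0.721), while Timp3, named after its values were seen, ran opposite (-0.683). Of 7 osteoclast genes, a cell that shares Atp6v0d2 and Spp1 with these macrophages, 4 had r above 0.5. Named after their values were seen, the 4 were Ctsk (0.968), Dcstamp (0.963), Tnfrsf11a (0.943) and Ocstamp (0.770). The osteoclast list mean had r = 0.981 (rho = 0.958). Oscar (0.076) and Nfatc1 (0.291) stood below 0.5. Acp5, the acid phosphatase by which osteoclasts are stained and named after its values were seen, ran opposite (-0.759). Nfatc1, the master factor of osteoclasts, lay lower in No NR mice by -0.25 ± 0.087 (SE, limma, adjusted p = 0.196).

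Most pan-macrophage, monocyte recruitment and cell cycle genes moved with the members. The part of any cell type in the spread was not tested. Of 13 measured pan-macrophage markers, 11 had r above 0.5 with the members, and the list mean had r = 0.977 (rho = 0.975; 0.971 without the 2 farthest mice). It ranged between -0.97 and 0.45 in No NR mice, against -1.34 and 0.56 in Ctrl NR mice. The exceptions were Itgam (-0.126) and Mertk (0.260), which were also the macrophage markers of lowest p (0.21 ± 0.075 and 0.18 ± 0.077, adjusted p = 0.217 and 0.286; SE, limma). Monocyte recruitment genes stood alike, 7 of 8 having r above 0.5, with Ccr2 at 0.809. All 11 measured cell cycle genes had r above 0.5, among them Cenpa (0.940) and Tpx2 (0.840), and their mean had r = 0.961 (rho = 0.958).

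Markers of resident-type macrophages parted from the members. Of 11 measured, 4 had r above 0.5 and 5 below -0.5, and the list mean had r = -0.209 (-0.704 in No NR mice and 0.076 in Ctrl NR mice). Folr2, a folate receptor, followed the members (0.949), while Cd163, the haemoglobin scavenger receptor, ran opposite (-0.523). The other 4 that ran opposite, named after their values were seen, were Lyve1, Cbr2, Cd209f and Retnla (r between -0.736 and -0.671). Mrc1, Clec10a and Ccl8, named in the same way, followed the members (r = 0.784, 0.513 and 0.510). Folr2 and Cd163 differed between diets by 0.30 ± 0.18 and -0.14 ± 0.096 (SE, limma, adjusted p = 0.474 and 0.542).

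Fat cell markers ran against the members. Of 12 adipocyte markers, 11 had r below -0.5 and the list mean had r = -0.958 (rho = -0.929; -0.957 without the 2 farthest mice). That mean ranged between -0.51 and 0.70 in No NR mice, against -0.67 and 0.59 in Ctrl NR mice. Pparg, the master factor of fat cells, had r = -0.845, and Lep, the leptin gene, was the exception at -0.307. Lep and Pparg differed between diets by 0.26 ± 0.15 and -0.16 ± 0.10 (SE, limma, adjusted p = 0.453 and 0.471).

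Other cell types lay between. The list mean had r = 0.873 for stromal progenitor markers, 0.795 for mast cell markers and -0.794 for endothelial markers. It was 0.587, 0.572 and 0.507 for neutrophil, dendritic cell and T and NK cell markers, of which 3, 7 and 8 genes were measured. Without the 2 farthest mice these r values were 0.530, 0.459 and 0.360. Within No NR mice they were 0.465, 0.378 and 0.188, against 0.677, 0.697 and 0.728 within Ctrl NR mice. The neutrophil mean rested on S100a8 (0.715, named after its values were seen), as S100a9 and Csf3r had r of -0.132 and -0.157. B cell, mesothelial and epididymis or testis markers had r of 0.0095, -0.220 and -0.04. Over all features the median diet difference was -0.0064, and 47.6% of features lay above 0. The median was 0.31 for the cell cycle list (11 of 11 genes above 0) and 0.21 for the pan-macrophage list (13 of 13). It was 0.12 for the lysosome list (14 of 17). It was 0.12 for the signalling list (11 of 13), 0.10 for the proton pump list (15 of 17) and -0.051 for the adipocyte list (6 of 12). It was -0.43 for the epididymis and testis list (0 of 3), -0.39 for the B cell list (0 of 4), -0.20 for the mesothelial list (0 of 8) and -0.16 for the endothelial list (3 of 8). Most genes of the cell cycle, pan-macrophage, lysosome and signalling lists varied with the members across mice, so such counts are not of separate observations. Across these lists no gene passed an adjusted p of 0.05 in limma. Dcn, a stromal proteoglycan, had the lowest p of the genes named from the lists, with a difference of 0.42 ± 0.12 (SE, adjusted p = 0.132).

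**Figure D5:**
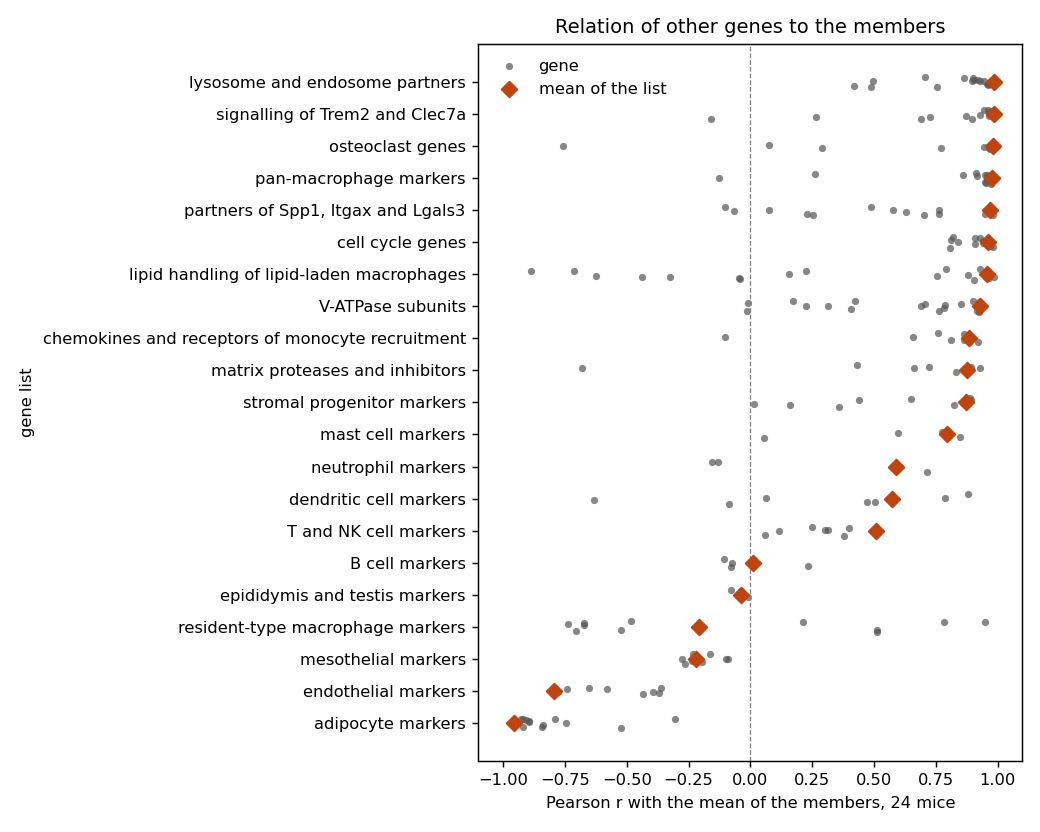
Pearson's r with the mean of the members over 24 mice (x axis), for the genes of each list (y axis, grey points) and for the mean of the list (red diamonds), as deviations from the diet mean. The means of the lysosomal, signalling, osteoclast and pan-macrophage lists lie near 1 and that of the adipocyte list near -1. Some single genes lie far from these means. Genes of the resident-type macrophage list lie on both sides of 0.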

How the data were processed

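Transcript levels of 24 fat pads, 12 per diet, were taken from 24 Agilent 2-colour arrays, all with the mouse in Cy5 and the pool in Cy3. The deposited scanner output gives linear spot intensity values; the submitters' processing notes name Agilent Feature Extraction 10.7.3.1 as the software. The authors' deposited value table holds log2 values whose differences between arrays followed the raw log2 Cy5/Cy3 ratio (lowest r 0.99989), with a median of 8.04 in every column. How it was normalized is not given in the sources used here, and it served as an alternative.

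Median spot intensities were corrected with normexp (offset 50) and loess within arrays in limma 3.58.1 under R 4.3.3. Control and outlier-flagged spots were left out, and spots of a probe averaged. Probes were named by accession through a RefSeq table (GRCm38.p6): 27229 of 55681 matched 1 symbol. A probe was kept if well above background in Cy5 on at least 6 of 12 arrays of a diet. The 21053 features tested were 13011 genes, each by its brightest kept probe, and 8042 unnamed probes. Diets were compared with limma (lmFit, eBayes, diet as the only term) and Benjamini-Hochberg adjustment at 0.05. Precision is limited by how many arrays there were; the median SE was 0.0811. On simulated data for this comparison (20 runs, 200 of 21053 features changed), 84.3% of changes of 0.5, 98.1% of 1 and 99.6% of 1.5 on the log2 scale were called, with a median of 2 false calls. The SEs of the members were all above that median, from 0.20 (Msr1) to 0.56 (Gpnmb). The simulated rates therefore do not hold for the members.

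The members and the gene lists were chosen with earlier results of these data known. Genes named are all members, up to 2 of lowest p per list, the 8 with the highest and 4 with the lowest r to the members' mean, and the closest gene to each member, clone and predicted names left out. Replicate numbers name animals and pair none across diets. The labels give each array its own mouse. Alternatives varied the normalization, background, filter, probe rule, slide, weights and mice. A withheld item is not reported here.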

Additional observations from a re-analysis of the deposited data

How the results depend on the processing

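No member passed an adjusted p of 0.05 in limma under any of the settings tried, the lowest value being 0.0983 for Mmp12 with array weights. The members' differences kept their sign in 357 of 367 comparisons with another setting. Many of these could hardly turn, since most left out 1 mouse and some settings left the estimate of most members unchanged. Scaling the log ratios between arrays by their spread over all spots turned 5 of them, to -0.34 for Trem2, -0.22 for Cd9, -0.21 for Gpnmb, -0.22 for Atp6v0d2 and -0.17 for Itgax. By construction this scaling widens the arrays of No NR 118 and No NR 74 most, and over the kept probes alone (added after the data were seen) Trem2 stood at 0.24 and Gpnmb at 0.22. With the mean of the other members as a covariate, also added later, Trem2 stood at -0.18, Cd9 at -0.12, Gpnmb at -0.26, Atp6v0d2 at -0.17 and Itgax at -0.062. The number of features past the threshold was 0, and became 2 with an offset of 16, 3 with probes well above background on all 24 arrays, 4 with scaling over the kept probes and 275 with array weights. Leaving out 1 mouse gave 0 to 227: it was 227 when mouse 68 was dropped, 220 for 117, 80 for 104, 34 for 75 and 9 for 77 (all Ctrl NR), and 3 for 78 and 2 for 118 (both No NR). At an unadjusted p under 0.05 there were 264 features with median centring in place of loess, 4563 of 49108 without the filter, and 2501 to 3711 with 1 mouse left out. The cause of these shifts in number was not tested. No paired analysis was possible because replicate numbers are animal numbers that the diets do not share. Dim probes limit Spp1, Msr1 and the second Mmp12 probe. Under median centring, Spp1 and Msr1 stood 2713 and 2626 in order of spread, while Gpnmb and Trem2 stood 1 and 2; they stood 48 and 85 on the processed signals, and 29 and 18 with scaling between arrays, where Atp6v0d2 stood 27 and no member was among the 10 widest.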
